A study of Macaca mulatta with 8 samples.

Results

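Genes outside the classic chaperone families, namely RRAD, CACNA1G, IGF1, IGFBP5, CCND1, GMPPB, HSPA12A and FBXO32, were followed in primary microglia of rhesus macaques exposed to a TLR4 agonist with or without an antagonist of the receptor P2RY6. They were picked from these same libraries for a large rise with the antagonist MRS2578, so the size and direction of that difference are given as a description, without a test. They make up 8 of the 35432 Ensembl genes in the count files, each symbol has 1 row, and all 8 were among the 12131 genes that passed the filter on low counts. Microglia isolated from frontal subcortical white matter of 4 adult donors (R07110, R12016, R02046 and R14143) were kept for 8 days in medium with serum and M-CSF. The paper lists R07110 and R12016 as male and R02046 and R14143 as female, of different ages. Differences between donors cannot be told apart from those of sex or age. On day 7 the cells of each donor received 10 µg/mL ultrapure LPS (uLPS) for 16 h, either alone or after 1 h with 5 µM MRS2578, which gave 4 libraries per condition and 8 in all. Both conditions received uLPS, and cells without uLPS were not analysed here, so each difference is one between MRS2578 and no MRS2578 in stimulated cells.

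The genes belong to separate pathways. RRAD is a small GTPase of the RGK family, which binds the beta subunits of voltage-gated calcium channels and lowers the current through high-voltage-activated channels, whereas CACNA1G is the pore of a low-voltage-activated (T-type) channel. IGF1 is a growth factor that microglia and other cells secrete, and IGFBP5 is a secreted protein that binds it. CCND1 (cyclin D1) activates CDK4 and CDK6 in G1. GMPPB makes GDP-mannose, the sugar donor of N-glycans, GPI anchors and O-mannosylation. HSPA12A is a distant relative of the HSP70 chaperones, and FBXO32 (atrogin-1) is the substrate-binding subunit of an SCF ubiquitin ligase and a known target of FOXO factors in muscle.

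The conditions of donor R02046 are in doubt. In the study's own table of normalised values, the columns named for this donor hold the values of the libraries that carry the opposite label, while the columns of the other donors hold those of the libraries with the same label. The deposited labels were kept here, and results are also given with the R02046 libraries exchanged and without this donor. Total counts ran from 9231109 (R02046, uLPS) to 32790348 (R07110, uLPS), so the R02046 uLPS library has the widest counting error. Microglial markers were abundant in every library, with a sum of 4689 to 6607 CPM (counts scaled to the size of the library) over the 15 measured genes, led by CSF1R and CD68. P2RY6 itself lay between 49.5 and 109.9 CPM. Markers of fibroblasts and mural cells summed to 162 to 1437 CPM, those of oligodendrocytes to 224 to 407, of endothelial cells to 189 to 334, of astrocytes to 88.7 to 205, of neurons to 6.88 to 33.8, and of lymphocytes to at most 0.759 CPM, with CD3G and NKG7 at 0. The levels are of bulk RNA, in which fewer cells of a type and less RNA per cell cannot be told apart. Each value is from 1 culture per donor and condition, so the spread holds differences between donors, cultures and libraries together.

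With uLPS alone the 8 genes covered a wide range of levels. Per kilobase of exon, CCND1 was at 49.7 ± 23.2 CPM (mean ± SD, n = 4) and GMPPB at 34.1 ± 13.8. IGFBP5 followed at 6.75 ± 5.17 CPM per kilobase, RRAD at 3.37 ± 5.78 and FBXO32 at 3.31 ± 1.39, then IGF1 at 0.968 ± 0.622, CACNA1G at 0.184 ± 0.256 and HSPA12A at 0.102 ± 0.0664. The ranges of mean ± SD did not overlap between GMPPB and IGFBP5 or between FBXO32 and IGF1, and they overlapped for every other pair of neighbours. The FBXO32 level is uncertain because its annotated model holds only 1379 bases of exon. By mean CPM over all libraries, not per length, CCND1 ranked 747 of 12131 genes and HSPA12A 11313. The order per kilobase is that of the deposited labels, and the places of RRAD and CACNA1G depend on R02046. With R02046 exchanged, the uLPS mean of RRAD was 1.15 ± 0.45 CPM, not per length, against 6.51 ± 11.2 as labelled. That of CACNA1G was 0.581 ± 0.410 CPM against 1.85 ± 2.57, and that of HSPA12A 0.861 ± 0.522 against 0.620 ± 0.405.

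**Figure D1:**
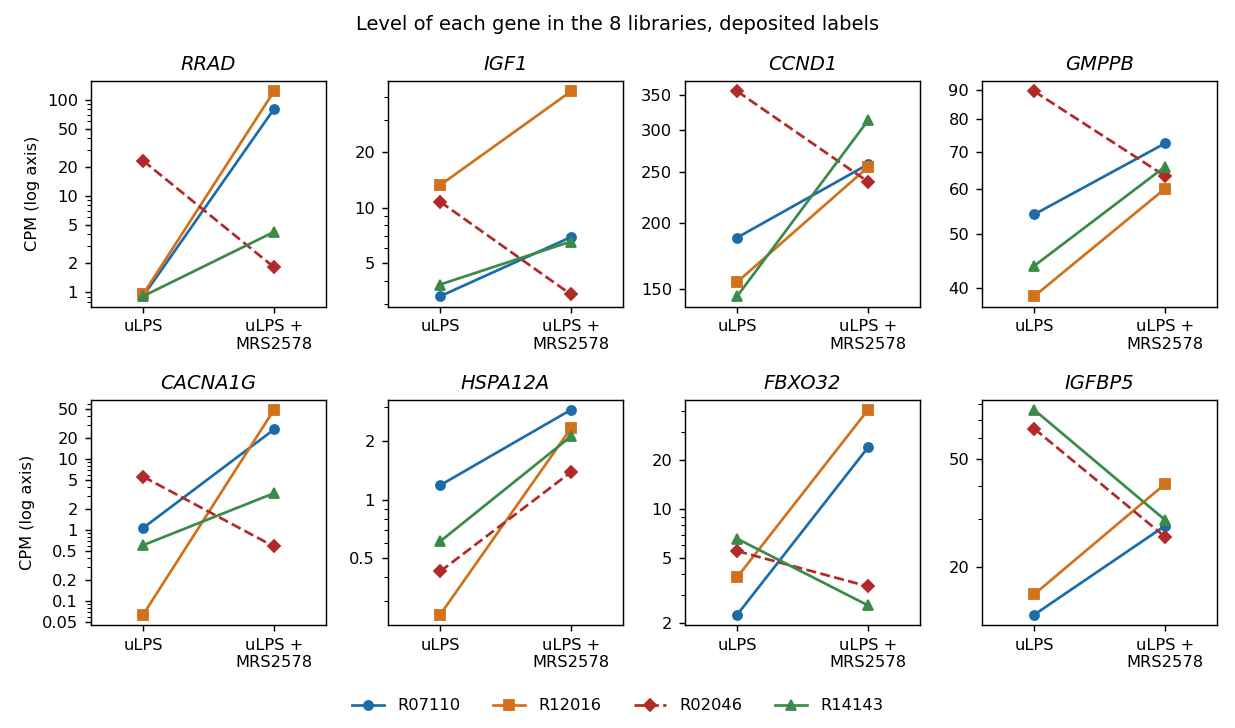
Level of each of the 8 genes in the 8 libraries, in TMM-scaled CPM on a log axis that differs between panels, with uLPS on the left and uLPS with MRS2578 on the right of each panel. Each line joins the libraries of 1 donor under the deposited labels, and the dashed line is R02046, which runs downwards in 7 of the panels and upwards in that of HSPA12A.

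RRAD (ENSMMUG00000049583) lies on the minus strand of the macaque genome Mmul_10 at chr20:54097485-54101894. With uLPS it was low in 3 donors, at 0.914 CPM in R07110, 0.957 in R12016 and 0.915 in R14143, and at 23.3 CPM in R02046. With MRS2578 it was at 80.0 CPM in R07110, 122 in R12016, 4.25 in R14143 and 1.83 in R02046. The MRS2578 library was therefore 87.5-fold higher in R07110, 127-fold in R12016 and 4.65-fold in R14143, and 12.7-fold lower in R02046 as labelled. These were the largest rise of all tested genes in R07110, the 3rd largest in R12016 and the 13th in R14143, and the 4th largest fall in R02046. The mean within-donor difference was 2.91 ± 4.83 on the log2 scale (SD, n = 4), 4.71 ± 2.25 with R02046 exchanged and 5.08 ± 2.60 without this donor (n = 3). The conditions overlapped under the deposited labels and were apart under the exchange or without R02046. Here and below, log2 differences carry a prior count of 2, which makes them smaller than the log2 of the fold for genes with few counts.

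CACNA1G (ENSMMUG00000017256; minus strand, chr16:46158277-46226485) had the pattern nearest to that of RRAD among the 8 genes. Its uLPS level was 1.07 CPM in R07110, 0.0638 in R12016, 0.610 in R14143 and 5.66 in R02046. With MRS2578 it was at 26.1, 49.5, 3.30 and 0.585 CPM in the same order of donors. In R12016 these values rest on 1 count without and 782 counts with MRS2578, a ratio of 775 with an exact 95% interval of 139 to 30646 for counting error only. The fold was 24.5 in R07110 and 5.41 in R14143, while the R02046 library labelled MRS2578 was 9.67-fold lower than its partner. The mean within-donor difference was 2.96 ± 4.70 on the log2 scale, 4.49 ± 2.63 with the exchange and 4.97 ± 3.00 without R02046. As for RRAD, the conditions overlapped under the deposited labels and not under the exchange or without R02046.

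Across the 8 libraries, log2 CPM of RRAD and CACNA1G correlated at a Pearson r of 0.95 and a Spearman rho of 0.79. Both genes were picked for a rise with MRS2578 in these libraries, so these values are a description only. The bases just upstream of the RRAD start are shown because RRAD held the only heat shock element pair among the 8 genes. They are the 300 bases before its RefSeq start in Mmul_10, read 5′ to 3′ on the minus strand, with capitals for the head-to-head pair of units GAANNTTC.
RRAD, chr20:54101895-54102194: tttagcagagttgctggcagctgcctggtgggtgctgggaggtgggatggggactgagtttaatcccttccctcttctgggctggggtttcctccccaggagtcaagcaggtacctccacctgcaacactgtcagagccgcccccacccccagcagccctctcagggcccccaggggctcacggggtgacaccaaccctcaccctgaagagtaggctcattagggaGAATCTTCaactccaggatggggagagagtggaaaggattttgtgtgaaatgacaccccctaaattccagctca
RRAD held GAATCTTC at 74 to 67 bases before its start. Among the windows of the 8 genes the RRAD match was the only one, against 6.25% of the 20787 protein-coding promoters of the same length and 7 of 17 chaperone promoters, HSPA8, HSP90AA1 and HSPB1 among them. The opposite arrangement, TTCNNGAA, was in 0 of the 8 windows, in 6.73% of all promoters and in 4 of the 17. A run of 3 units, GAANNTTC followed by NN and a further GAA, was in 0 of the 8, in 0.419% of all and in 4 of the 17. Neither the exact FOXO site GTAAACA (3.14% of all promoters) nor the exact cAMP response element TGACGTCA (1.56%) occurred in the 8 windows. Variants of these letters were not searched for. The FBXO32 window holds ATAAACA and the CCND1 window TAACGTCA, so a lack of such sites is not claimed. Each search covered both strands, the first 2 motifs overlap within the 3-unit run, and a match is a description of the letters alone.

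The relatives and partners of both genes were measured in the same fit. Of the other RGK GTPases, GEM averaged 20.9 CPM over the libraries, REM2 2.05 CPM, and REM1 was below the filter. GEM had a log2 fold change of 0.20 ± 0.26 (SE; edgeR quasi-likelihood test with donor as a block, Benjamini-Hochberg adjusted p = 0.930) under the deposited labels and 0.60 ± 0.13 (adjusted p = 0.0840) with R02046 exchanged. REM2 had −0.29 and −0.62 in the same order, with adjusted p of 0.934 and 0.395 in edgeR. Without R02046, GEM had 0.52 (edgeR adjusted p = 0.198) and REM2 −0.56 (adjusted p = 0.578). Of 17 other subunits of voltage-gated calcium channels, 8 passed the filter, led by the pore subunits CACNA1A (10.4 CPM) and CACNA1F (8.50 CPM). Of these 8, 5 had a higher and 3 a lower fitted level with MRS2578 under each assignment. In edgeR none had an adjusted p under 0.05, against 0% of all genes tested under the deposited labels and 0.618% with the exchange. The median log2 fold change of the 8 was 0.14, or 0.13 with the exchange, against −0.01 and 0.00 over all genes tested. Without R02046 the split was also 5 and 3, with a median of 0.11 and 0 calls in edgeR, against 0% of all genes. The other T-type pores, CACNA1H and CACNA1I, were below the filter. CACNA1G was thus the T-type gene with counts enough to describe.

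IGF1 (ENSMMUG00000002235; minus strand, chr11:102171555-102254490) differed between donors by more than it did between conditions. The level with uLPS was 3.29 CPM in R07110, 13.3 in R12016, 3.81 in R14143 and 10.8 in R02046. With MRS2578 it was at 6.92 CPM in R07110, 43.1 in R12016, 6.54 in R14143 and 3.36 in R02046. The library with MRS2578 was 2.10-fold higher in R07110, 3.25-fold in R12016 and 1.72-fold in R14143, and the R02046 library so labelled was 3.20-fold lower. The mean within-donor log2 difference was 0.46 ± 1.46 (n = 4), 1.29 ± 0.46 with the exchange and 1.17 ± 0.48 without R02046. R12016 had the highest level under each condition, and the conditions overlapped under every assignment.

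IGFBP5 (ENSMMUG00000041480; minus strand, chr12:104059457-104080228) did not have the rise for which it was picked in the mean over the 4 donors as labelled. With uLPS alone it stood at 13.4 CPM in R07110, 15.9 in R12016, 76.0 in R14143 and 64.8 in R02046. With MRS2578 the donors lay closer together, at 28.4, 40.5, 29.9 and 25.9 CPM in the same order. The level with MRS2578 was 2.13-fold higher in R07110 and 2.55-fold in R12016, it was 2.55-fold lower in R14143, and in R02046 as labelled it was 0.400 of the level with uLPS. The mean within-donor log2 difference was −0.06 ± 1.47 under the deposited labels, 0.60 ± 1.30 with the exchange and 0.36 ± 1.48 without R02046, in each case smaller than its SD. In R14143 the direction was downward whatever the labels of R02046.

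The fibroblast and mural cell markers moved with IGFBP5 in that donor. Their summed level in R14143 was 1437 CPM with uLPS, the highest of the 8 libraries, and 544 CPM with MRS2578. The change of the sum on the log2 scale was −1.40 in R14143, against 0.54 in R07110, 0.95 in R12016 and 0.42 in R02046 as labelled. With uLPS the sum ran from 162 to 1437 CPM and with MRS2578 from 312 to 636, and 9 of the 12 markers had over 3 counts in every library. COL1A1, the most abundant, was at 512 CPM with uLPS and 178 with MRS2578 in R14143, and at 41.3 to 106 CPM in the other uLPS libraries. The mural marker RGS5 was at 0 in 6 of the libraries. Over the 8 libraries, log2 IGFBP5 had a Pearson r of 0.76 and a Spearman rho of 0.62 with the log2 sum, and the other 7 genes had r between −0.41 and 0.11. With the log2 sum of the microglial markers, r was −0.58 for GMPPB, −0.57 for CACNA1G and HSPA12A, −0.56 for CCND1, −0.51 for IGFBP5, −0.39 for RRAD, −0.17 for FBXO32 and 0.14 for IGF1. The microglial sum changed by −0.18 on the log2 scale in R07110, −0.26 in R12016, −0.15 in R14143 and 0.15 in R02046 as labelled. The sum of the neuronal markers changed by 0.62, 1.48, 0.77 and −0.29 in the same order. MAP2 made up 82.4% of it, and 2 of the 6 neuronal markers had over 3 counts in every library. These were the same signs as for RRAD, CACNA1G, IGF1, CCND1 and GMPPB, and as for 10.6% of all genes tested. The points are paired by donor and share the depth of each library, and the part of these cells in the values of IGFBP5 or of the other genes was not tested.

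**Figure D2:**
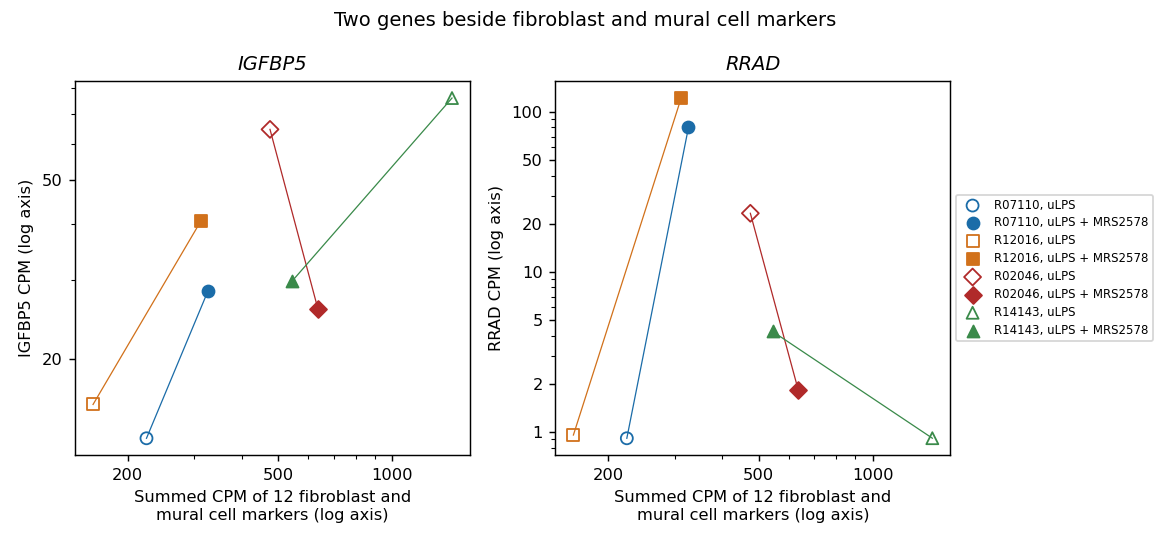
IGFBP5 (left) and RRAD (right) in CPM against the summed CPM of 12 fibroblast and mural cell markers in the 8 libraries, all axes logarithmic. Open symbols are uLPS, filled symbols uLPS with MRS2578, and lines join the libraries of 1 donor under the deposited labels; IGFBP5 is highest (76.0 CPM) in the library with the highest marker sum (1437 CPM), in which RRAD is at 0.915 CPM.

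Of 15 other genes of the IGF axis, 11 passed the filter. The receptor that clears IGF2, IGF2R (435 CPM), and the binding protein IGFBP4 (428 CPM) were the most abundant. IGF2R had a log2 fold change of 0.04 ± 0.24 (SE, edgeR adjusted p = 0.991) under the deposited labels and −0.47 ± 0.15 (adjusted p = 0.178) with the exchange. IGFBP4 had −0.24 ± 0.12 (edgeR adjusted p = 0.878) and −0.28 ± 0.09 (adjusted p = 0.183). Of the 11, 6 had a higher and 5 a lower fitted level under the deposited labels, and 5 and 6 under the exchange. In edgeR none passed the adjusted threshold of 0.05, against 0% of all genes tested under the deposited labels and 0.618% with the exchange. Without R02046, 4 had a higher and 7 a lower fitted level, with IGF2R at −0.28 (edgeR adjusted p = 0.346) and IGFBP4 at −0.34 (adjusted p = 0.247). The largest fitted change among the 11 was that of IRS2 (5.13 CPM), at 1.32 ± 0.49 (SE, edgeR adjusted p = 0.878) as labelled. It was 1.22 ± 0.50 (adjusted p = 0.282) with the exchange and 1.57 (adjusted p = 0.305) without R02046. IRS2 was higher with MRS2578 in 3 donors as labelled and lower in R14143. The receptor gene IGF1R averaged 2.39 CPM, and IGF2 was below the filter.

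CCND1 (ENSMMUG00000002368; minus strand, chr14:5154677-5167891) was the most abundant of the 8 genes. It was at 188 CPM with uLPS in R07110, 155 in R12016, 145 in R14143 and 356 in R02046, and with MRS2578 at 259, 256, 313 and 240 CPM. The level with MRS2578 was 1.38-fold higher in R07110, 1.65-fold in R12016 and 2.16-fold in R14143, and 1.49-fold lower in R02046 as labelled. R14143, in which RRAD and CACNA1G differed least among the 3 donors with undisputed labels, had the widest CCND1 difference. The mean log2 difference was 0.43 ± 0.72, 0.72 ± 0.28 with the exchange and 0.77 ± 0.33 without R02046. The conditions were apart under the exchange and without R02046.

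The genes that act with cyclin D1 did not have a common direction under both assignments. Of 12 measured G1 genes, 3 had a higher and 9 a lower fitted level under the deposited labels, and 6 and 6 with the exchange. In edgeR none was called, against 0% of all genes tested under the deposited labels and 0.618% with the exchange. The CDK inhibitor CDKN1A (452 CPM) had a log2 fold change of 0.10 ± 0.12 (SE, edgeR adjusted p = 0.929), or −0.06 ± 0.11 (adjusted p = 0.844) with the exchange. The retinoblastoma gene RB1 (292 CPM), whose protein cyclin D1 and its kinases phosphorylate, had −0.09 ± 0.12 (edgeR adjusted p = 0.931), or −0.21 ± 0.09 (adjusted p = 0.296). Without R02046, 5 had a higher and 7 a lower fitted level, with CDKN1A at 0.03 (edgeR adjusted p = 0.954) and RB1 at −0.20 (adjusted p = 0.487). CCND2, CDK2 and CDKN2A were not analysed here, as no row carries these symbols.

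GMPPB (ENSMMUG00000014584; minus strand, chr2:105837424-105839890) had the smallest and most even differences. Its level with uLPS was 54.1 CPM in R07110, 38.7 in R12016, 43.9 in R14143 and 89.5 in R02046, and with MRS2578 at 72.4, 60.1, 65.8 and 63.3 CPM. The fold was 1.34 in R07110, 1.55 in R12016 and 1.50 in R14143, and R02046 as labelled was 1.41-fold lower with MRS2578. The mean log2 difference was 0.28 ± 0.53, 0.53 ± 0.09 with the exchange and 0.55 ± 0.11 without R02046. The conditions overlapped with all 4 donors under both assignments and were apart without R02046. Over the 8 libraries GMPPB and CCND1 had a Pearson r of 0.94 and a Spearman rho of 0.93.

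The other genes of GDP-mannose synthesis and use did not have a common direction under both assignments. Of 17 tested, 6 had a higher fitted level under the deposited labels and 12 with the exchange, with median log2 fold changes of −0.02 and 0.08. There were 0 calls in edgeR under each, against 0% and 0.618% of all genes tested. The most abundant, the phosphomannomutase PMM2 (138 CPM), had −0.13 ± 0.10 (SE, edgeR adjusted p = 0.901) and −0.11 ± 0.10 (adjusted p = 0.616). The mannosyltransferase ALG2 (61.7 CPM) had −0.11 ± 0.09 (edgeR adjusted p = 0.901) and −0.04 ± 0.09 (adjusted p = 0.858). Without R02046, 11 had a higher and 6 a lower fitted level, with PMM2 at −0.16 (edgeR adjusted p = 0.602) and ALG2 at −0.10 (adjusted p = 0.723). ALG9 and DPM3 were not analysed here.

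HSPA12A (ENSMMUG00000010908; minus strand, chr9:117159677-117341295) was the least abundant of the 8 genes and had the opposite behaviour in R02046. With uLPS it was at 1.19 CPM in R07110, 0.255 in R12016, 0.610 in R14143 and 0.427 in R02046. With MRS2578 it was at 2.91, 2.34, 2.12 and 1.39 CPM. It was the only member with a higher level in all 4 donors as labelled, by 2.45-fold, 9.17-fold, 3.48-fold and 3.26-fold, and its conditions did not overlap. These folds rest on few counts, with 4 against 37 in R12016 and 4 against 19 in R02046. The mean log2 difference was 1.78 ± 0.68 under the deposited labels, 1.87 ± 0.79 without R02046, and 1.03 ± 1.80 with the exchange, under which R02046 alone went downward and the conditions overlapped. Of the other distant HSP70 genes, HSPA14 (51.7 CPM) had a log2 fold change of 0.02 ± 0.10 (SE, edgeR adjusted p = 0.991) and HSPA13 (32.0 CPM) of 0.19 ± 0.10 (edgeR adjusted p = 0.878), or 0.09 (adjusted p = 0.661) and 0.11 (adjusted p = 0.685) with the exchange. Without R02046, HSPA14 had 0.07 (edgeR adjusted p = 0.806) and HSPA13 0.20 (adjusted p = 0.521). HSPA12B was below the filter.

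FBXO32 (ENSMMUG00000023778; minus strand, chr8:123811889-123850016) differed in direction between donors. Without MRS2578 it was at 2.25 CPM in R07110, 3.83 in R12016, 6.61 in R14143 and 5.55 in R02046. With MRS2578 it was at 24.0 and 40.9 CPM in R07110 and R12016, 10.7-fold higher in each. It was at 2.57 CPM in R14143, 2.57-fold lower, and at 3.36 CPM in R02046, 1.65-fold lower as labelled. The difference was the 16th largest rise in R07110 and the 48th largest in R12016. It was the 316th largest fall in R14143 and the 790th largest in R02046 as labelled. The mean log2 difference was 1.18 ± 2.54, 1.53 ± 2.28 with the exchange and 1.80 ± 2.71 without R02046, and the conditions overlapped under each. R07110 and R12016 also had the higher IGFBP5 level with MRS2578, and R14143 went downward for both genes. In R02046 the direction of both depends on its labels. With the exchange both genes were higher in 3 of 4 donors, and R14143 alone went downward.

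The partners of FBXO32 had small differences of both signs. Of 10 measured genes of the SCF ligase, of muscle atrophy and of the FOXO family, 6 had a higher and 4 a lower fitted level under the deposited labels. With the exchange it was 4 and 6. In edgeR none was called, against 0% of all genes tested under the deposited labels and 0.618% with the exchange. The SCF subunit SKP1 (230 CPM) had a log2 fold change of 0.02 ± 0.12 (SE, edgeR adjusted p = 0.991), or 0.16 ± 0.09 (adjusted p = 0.448) with the exchange. The scaffold CUL1 (147 CPM) had −0.16 ± 0.13 (edgeR adjusted p = 0.901), or −0.23 ± 0.11 (adjusted p = 0.366). Without R02046, 6 had a higher and 4 a lower fitted level, with SKP1 at 0.12 (edgeR adjusted p = 0.712) and CUL1 at −0.26 (adjusted p = 0.484). FBXO40 and FOXO6 were at 0 in every library.

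Counted over the members, 8 were higher with MRS2578 in R07110, 8 in R12016, 6 in R14143 and 1 in R02046 as labelled. In all 4 donors, 1 was higher under the deposited labels (HSPA12A), against 6.43% of all 12131 genes tested, and 5 were with the exchange (RRAD, CACNA1G, IGF1, CCND1 and GMPPB), against 10.6%. In R07110, R12016 and R14143 together, 6 were higher, against 17% of all genes. Every library with MRS2578 lay above every uLPS library for 1 member under the deposited labels (0.668% of all genes), for 3 with the exchange (1.41%) and for 5 without R02046 (5.61%). By fitted log2 fold change as labelled, RRAD ranked 2, CACNA1G 5, HSPA12A 22 and FBXO32 42 of 12131 genes. IGF1 ranked 380, CCND1 670, GMPPB 1201 and IGFBP5 7731. With the exchange the ranks ran from 1 for RRAD to 606 for GMPPB. The members were chosen by this very contrast, so nothing is read from these shares or ranks. In the edgeR test across all genes, 0 of 12131 (0%) passed an adjusted p of 0.05 under the deposited labels and 624 (5.14%) an unadjusted p of 0.05, while DESeq2 called 1 (0.00824%). With the exchange edgeR called 75 (0.618%), 12 of them higher with MRS2578, and 1995 (16.4%) had an unadjusted p under 0.05. DESeq2 then called 583 of the 11660 genes to which it gave an adjusted p (5%). Without R02046 edgeR called 0 of 12295 (0%), with 1670 (13.6%) at an unadjusted p under 0.05.

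**Figure D3:**
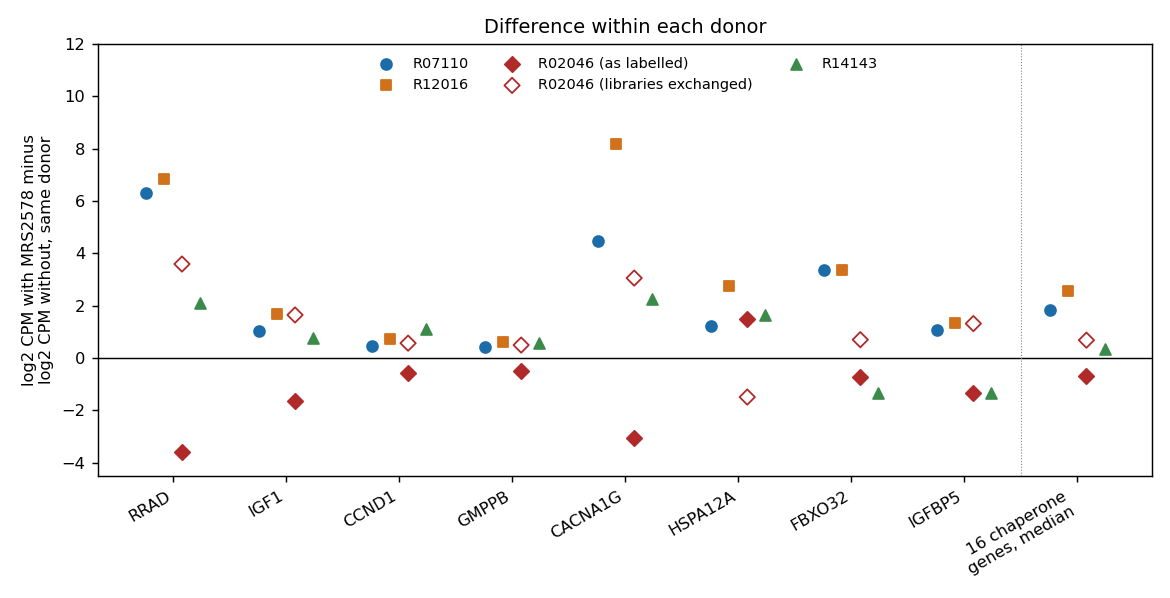
Difference in log2 CPM (prior count 2) between uLPS with MRS2578 and uLPS in each donor, for the 8 genes and, right of the dotted line, the median of 16 chaperone genes. Filled diamonds are R02046 as labelled and open diamonds the same donor with its libraries exchanged; R07110 and R12016 are above 0 throughout, and R14143 is below 0 for FBXO32 (−1.33) and IGFBP5 (−1.35).

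Chaperone genes were set beside the members. The 16 measured chaperone and cochaperone genes had a median within-donor log2 difference of 1.84 in R07110, 2.55 in R12016, 0.35 in R14143 and −0.69 in R02046 as labelled. All 16 had a higher fitted level with MRS2578, with a median log2 fold change of 0.99, or 1.33 with the exchange and 1.56 without R02046, against a median of −0.01 to 0.00 over all genes, and edgeR called none of them in any of these. The unadjusted p was under 0.05 for 3 of the 16 under the deposited labels, against 5.14% of all genes, and for 14 with the exchange, against 16.4%. DESeq2 called 11 of them with the exchange, against 5% of all genes. This list was written with earlier results of these data known. HSPA1A and HSPA1B were not analysed here.

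The genes whose log2 CPM followed each member most closely over the 8 libraries were found without the labels. The members themselves were picked for a rise with MRS2578 in these libraries, so the search is not independent of that contrast. For RRAD they were BAG3 (Pearson r of 0.98), a cochaperone of HSP70, DNAJA4 (0.97), an HSP40 cochaperone, and TCP1 (0.97), a subunit of the chaperonin TRiC. DOK2 (0.97) and RANGAP1 (0.97) were among those for CACNA1G. For IGF1 they were SUSD3 (0.99), HSPE1 (0.95), the mitochondrial cochaperonin, and GTF2F1 (0.94). For IGFBP5 they were MSX1 (0.96), AURKAIP1 (0.94) and ATP5F1D (0.92). The nearest to CCND1 were ZNF26 (0.97), ZNF174 (0.96) and LMAN1 (0.94), a cargo receptor of the early secretory pathway. GMPPB lay nearest to PRSS16 (0.97), PDIA6 (0.96), a disulfide isomerase of the endoplasmic reticulum, and ADSS2 (0.95). HSPA12A lay nearest to DPY19L3 (0.94), ZFP14 (0.94) and GMCL1 (0.93), and FBXO32 to SARAF, NUCB1 and GADD45G (0.98 each). The values are the highest of 12131 genes over 8 points that share donors, and they are given as a description without a test.

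Among the members themselves the 8 genes fell into no single pattern. The highest r after RRAD with CACNA1G (0.95) and CCND1 with GMPPB (0.94) were those of RRAD with FBXO32 (0.84) and of CACNA1G with FBXO32 (0.79). FBXO32 had r of 0.16 with CCND1 and 0.20 with GMPPB, IGF1 had 0.08 with GMPPB and 0.05 with HSPA12A, and IGFBP5 had −0.08 with HSPA12A and at most 0.37 with any other member.

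Over the 7 partner lists together, 62 genes were tested and edgeR called 0 under the deposited labels, with the exchange and without R02046. Over all genes tested it called 0%, 0.618% and 0%, so few calls were to be had. At an unadjusted p under 0.05 there were 2, 9 and 5 of the 62, against 5.14%, 16.4% and 13.6% of all genes tested. DESeq2 called 0 under the deposited labels and 1 with the exchange, GEM, with a log2 fold change of 0.60 ± 0.16 (SE, DESeq2 adjusted p = 0.00804).

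**Figure D4:**
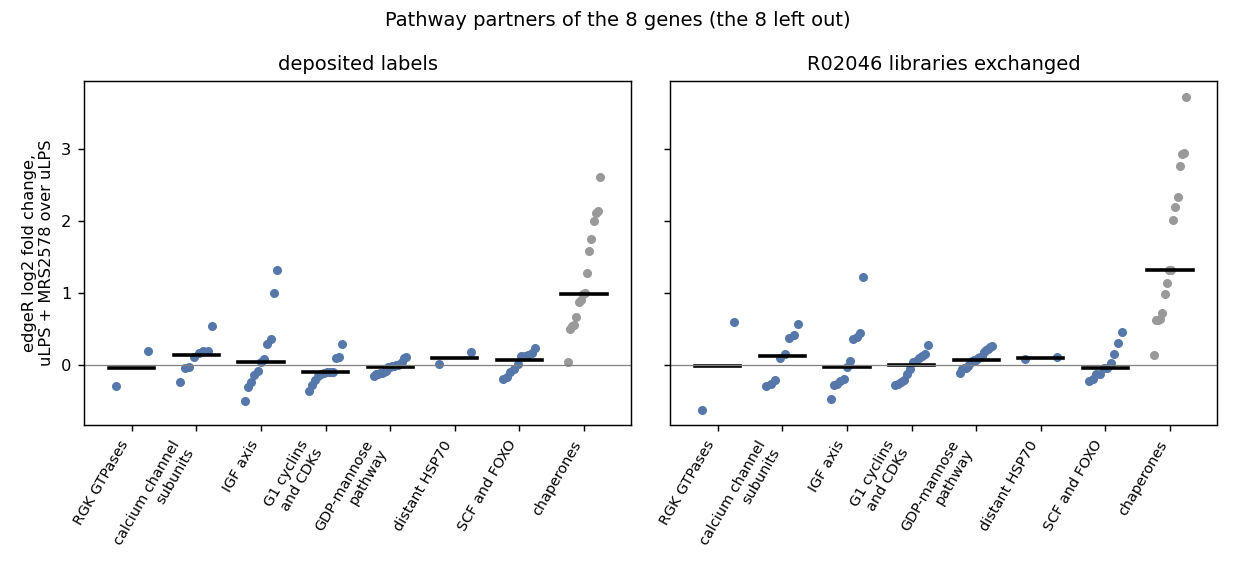
Fitted log2 fold change (edgeR) of uLPS with MRS2578 over uLPS for the tested genes of the 7 partner lists and, in grey, 16 chaperones, with the deposited labels (left) and with the R02046 libraries exchanged (right). Each point is a gene and each bar the list's median; the 7 partner medians lie between −0.10 and 0.14 on both sides and that of the chaperones at 0.99 and 1.33.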

How the data were processed

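RNA of 8 libraries was measured by directional poly(A) sequencing. The deposited values are whole-number read counts for 35432 Ensembl genes, without normalization. According to the paper's methods the authors used fastp (0.20), STAR (2.5.4) with Mmul_10, SAMtools (1.10) and HTSeq (0.11.0) and counted unique reads within exons, whereas the submitters' processing notes name Trimmomatic (0.30), TopHat2 (2.0.14), SAMtools (1.3) and HTSeq (0.6.1p1). The strand setting and annotation release are not given in the sources used here, so reads of overlapping genes could not be told apart, and reads shared with near-identical copies are not counted.

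Counts were filtered with filterByExpr (minimum count 10), scaled by TMM and tested with edgeR (4.0.16) quasi-likelihood F-tests in R (4.3.3), blocked by donor, at a Benjamini-Hochberg adjusted p of 0.05. The procedure was tested on simulated counts that had no differences between donors and the same change in every donor. That run does not cover data in which donors differ as they do here. The SE is the one implied by the test statistic. CPM are TMM-scaled and log2 CPM carry a prior count of 2. Total counts ran from 9231109 to 32790348, and the limit that a count of 0 allows, 3 counts, is 0.325 CPM in the smallest library and 0.0915 in the largest, for counting error only. Libraries are paired by the animal they came from, and across genes both libraries of an animal departed from their condition's mean together (r of 0.458 to 0.602). P-values of the blocked fit weigh the within-donor difference against how much it varied between donors. That variation also holds differences between cultures and libraries.

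The members and gene lists were chosen with earlier results of these data known. Beside the members, the genes named are the 2 most abundant of each partner list and any called by edgeR, the 3 genes with the highest Pearson r to each member (1 for CACNA1G is not reported here), and the 2 most abundant markers of a cell type named in the text. The other genes named were chosen after their values were seen. IRS2 was named for the size of its fitted change, and the rest mostly for being absent, below the filter or relatives of a member. Positions, exon lengths and sequences are from RefSeq for Mmul_10, in which all 8 members were matched by symbol.

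Alternatives were the exchange of the R02046 libraries, DESeq2 (1.42.0) size factors and Wald test, no filter, no donor block, a prior count of 0.25 and each donor left out. The earlier edgeR estimation, and DESeq2 and no block with the exchange, were added after the data were seen.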

Additional observations from a re-analysis of the deposited data

Results flagged for a closer look

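RRAD with uLPS stood apart in R02046, at 23.26 CPM against 0.914 to 0.957 CPM in the other 3 donors. This is the library whose label is in doubt. IGF1 with uLPS and MRS2578 stood apart in R12016, at 43.14 CPM against 3.36 to 6.92 CPM in the other 3 donors. These are 2 of the 24 groups of 4 values examined. In both, the gap of the highest library to the next, as a share of the range of the group, was above Dixon's 95% critical value for 4 values. Chance passes this value in about 1 of 20 groups, and 2 of 24 is near that share. The genes were picked for large differences in these libraries and the groups share libraries. The Dixon value is therefore used to flag values and not as a test.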

How the results depend on the processing

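With the R02046 libraries exchanged, edgeR called 75 genes in place of 0, the earlier edgeR estimation 39 and DESeq2 583, against 1 for DESeq2 with the deposited labels. With the exchange and 1 donor left out the count ran from 0 without R07110, and 5 without R12016, to 918 without R14143. Called partners were then 0 to 4, the 4 being GEM, IGFBP6 and EIF3F (higher) and IGF2R (lower) without R14143, and DESeq2 with the exchange called 1. The mean HSPA12A difference was 1.03 with the exchange, and 0.46 to 0.95 with a further donor left out (0.83 without R14143). The IGFBP5 mean turned positive with the exchange (0.60), ran from −0.52 to 0.37 with 1 donor left out (0.36 without R02046, 0.37 without R14143) and from 0.36 to 1.25 with both (0.44 without R07110). Its fitted log2 fold change likewise reversed to 0.62 with the exchange, 0.63 in the earlier estimation, 0.66 in DESeq2 and 0.31 with no replicate block, each with the exchange, to 0.37 without R02046 and 0.41 without R14143 (−0.56 without R12016), and to 0.36, 0.46 and 1.25 with the exchange and a further donor left out. The cause was not tested.

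With no replicate block, and so without the pairing by donor, edgeR called 0 genes under either assignment, with 250 and 709 at an unadjusted p under 0.05. Under the deposited labels, the mean difference of RRAD ran from 1.61 without R12016 to 5.09 without R02046, that of CACNA1G from 1.23 to 5.02, that of IGF1 from 0.06 to 1.17 and that of GMPPB from 0.17 to 0.54, each without the same donors. FBXO32 ran from 0.45 without R12016 to 2.01 without R14143, and CCND1 from 0.20 without R14143 to 0.76 without R02046. With 1 donor left out the other libraries were scaled anew, which is why the means without R02046 differ slightly from those over the same donors given earlier. Low counts limit CACNA1G, at 1 count in the R12016 uLPS library, and HSPA12A, at 4 counts in 2 of the uLPS libraries.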
